A study of Homo sapiens with 12 samples.

Results

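The genes described here are 8 enzymes of the mevalonate pathway (ACAT2, HMGCS1, MVK, PMVK, MVD, IDI1, FDPS and GGPS1), out of 35579 genes to which the sequenced transcripts could be assigned. They were chosen by their place in the pathway and with their lower levels in TYRO3-expressing cells already known from these same libraries. Their values against the GFP control are therefore given as a description and not as a test. All 8 passed the filter on low counts, which 15098 genes passed. RNA came from WM-266-4, a human melanoma cell line, in which an shRNA delivered by lentivirus and kept under puromycin selection stably lowered TYRO3 in all 4 groups. These cells were transfected with a pEZY-myc-his plasmid for GFP, wild-type TYRO3 (WT), TYRO3 with the substitution I449A (ΔGS) or TYRO3 with the substitutions P408A, L409P and G419P (ΔADAM), and were kept without serum overnight. The TYRO3 protein is a receptor tyrosine kinase that ADAM proteases and then gamma-secretase cut. The ΔGS variant resists the gamma-secretase cut, and the ΔADAM variant resists the ADAM cut and so, as the cuts follow each other, both. Each of 3 experiments gave 1 library per group, so that every group has 3 libraries. The methods of the study call the control a vector control and a figure legend calls it an empty plasmid, whereas the sample labels name GFP.

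The mevalonate pathway turns acetyl-CoA into isoprenoid units, from which cells build cholesterol, ubiquinone, dolichol and the farnesyl and geranylgeranyl groups that anchor small GTPases such as RAS in membranes. ACAT2 and HMGCS1 make HMG-CoA, the precursor of mevalonate, MVK and PMVK phosphorylate mevalonate, and MVD removes a carboxyl group to give isopentenyl diphosphate. IDI1 interconverts the isoprene units, FDPS joins them to farnesyl diphosphate, and GGPS1 lengthens that product to geranylgeranyl diphosphate. Many genes of the pathway are activated by the sterol-sensing transcription factor SREBP2 together with NF-Y, which binds CCAAT boxes, when membrane cholesterol is low.

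The libraries held 4008293 to 38184838 estimated counts (median 23302001), and the GFP library of experiment 1 was the shallowest, with the next at 18365999. In that library the enzymes rested on 88 (PMVK) to 1922 (HMGCS1) counts. Counting error alone gives MVK, with 171 counts, a 95% exact Poisson interval of 146 to 199. TYRO3 was at 27.7 to 36.3 TPM (a level per transcript length, scaled to library size) in the GFP libraries. It was at 1690, 1960 and 1790 TPM in the WT, ΔGS and ΔADAM libraries of experiment 1, at 988, 733 and 640 TPM in experiment 2 and at 780, 824 and 664 TPM in experiment 3. Summed markers of melanocytes stood at 1640 to 1990 TPM with GFP and at 1070 to 1990 TPM with TYRO3, and 7 or 8 of the 8 markers reached 1 TPM in each library. Of 10 markers of keratinocytes, fibroblasts, leukocytes, endothelium and epithelium, the fibroblast gene LUM was at 36.2 to 84.5 TPM, KRT5 was at 0 in all 12 libraries, and the other 8 were at most at 5.35 TPM.

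Of the 8 enzymes, 6 (ACAT2, HMGCS1, MVK, MVD, IDI1 and FDPS) were lower than GFP in every TYRO3 library, and 2 (PMVK and GGPS1) were near the GFP level. For the mean of the TYRO3 groups, the fitted level of PMVK was 0.92 and that of GGPS1 0.893 of that with GFP. The largest mean difference was that of HMGCS1, whose fitted level with TYRO3 was 0.321 of that with GFP. Expressed as TPM, the 8 enzymes summed to 1230, 1680 and 1430 in the GFP libraries of experiments 1, 2 and 3. Their sum was 37% to 42.4% of the GFP library in experiment 1, 52.2% to 65.2% in experiment 2 and 56.7% to 68.6% in experiment 3. In bulk RNA of this kind, less RNA per cell cannot be told apart from fewer cells that express a gene.

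**Figure D1:**
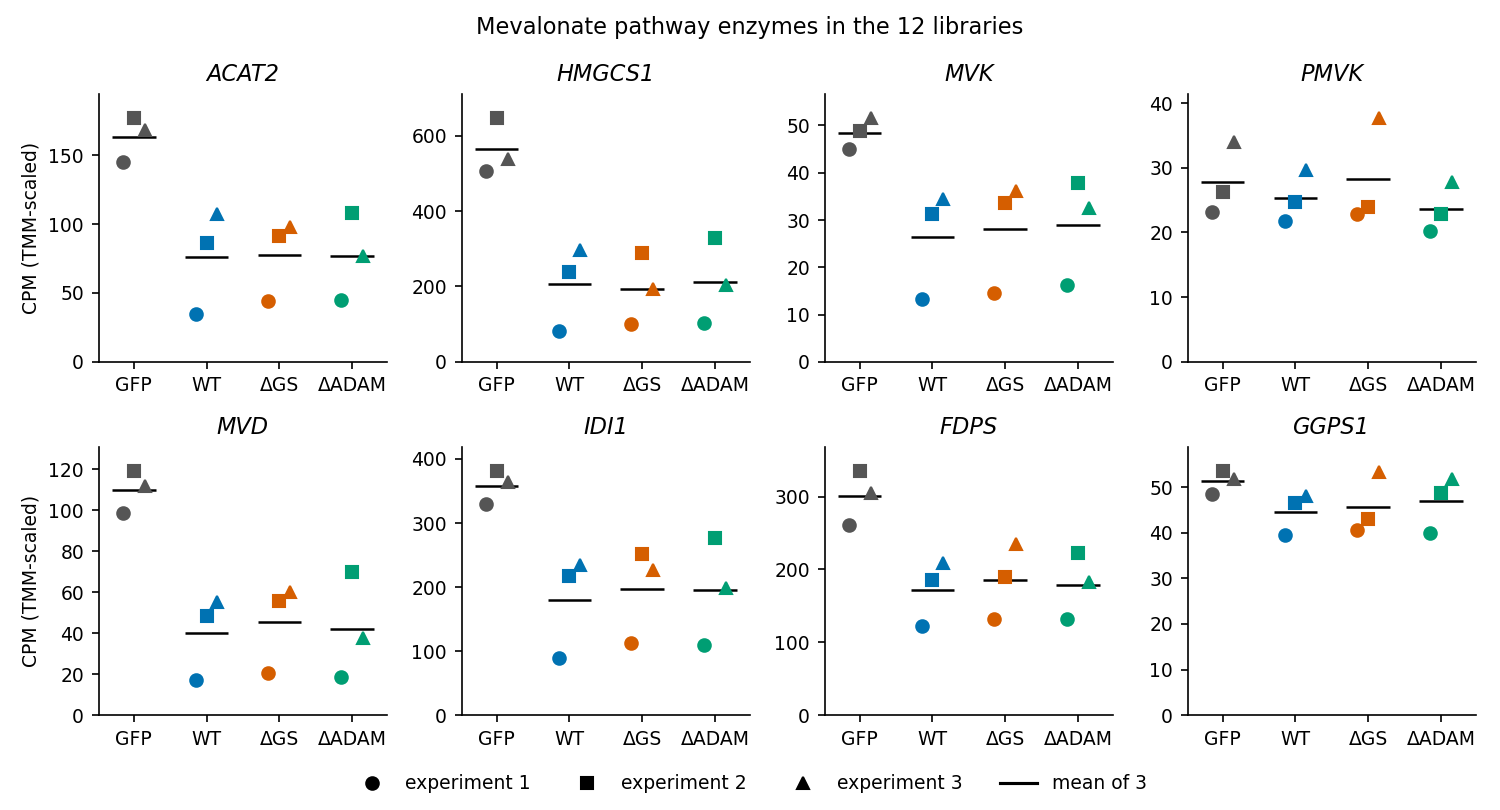
Level of each enzyme in CPM (counts scaled by TMM library sizes) for the 4 transfections, with 1 point per library, its shape giving the experiment, and a bar at the mean of the 3 libraries. In 6 panels all 9 TYRO3 points lie below the 3 GFP points, with experiment 1 the lowest, whereas PMVK and GGPS1 overlap with GFP.

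The first committed steps were among the most reduced. ACAT2, the thiolase that condenses acetyl-CoA to acetoacetyl-CoA, was at 145, 177 and 168 CPM (counts scaled to library size) in the GFP libraries of experiments 1 to 3, at 34.8, 86.6 and 107 CPM with WT, at 44.4, 91.4 and 97.9 CPM with ΔGS and at 44.9, 108 and 76.9 CPM with ΔADAM TYRO3. Every TYRO3 library was thus below every GFP library, and each construct was lowest in experiment 1. The log2 fold change of ACAT2 was -1.21 with WT, -1.15 with ΔGS and -1.17 with ΔADAM (SE 0.216 to 0.218, n = 3 libraries per group).

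HMGCS1, the cytosolic HMG-CoA synthase, was at 505, 647 and 538 CPM with GFP, at 82.8, 238 and 297 CPM with WT, at 100, 289 and 194 CPM with ΔGS and at 104, 329 and 204 CPM with ΔADAM in experiments 1 to 3. The groups did not overlap, and in experiment 1 the gene was left at 16.4% to 20.7% of its GFP level. Its log2 fold changes were -1.63, -1.70 and -1.58 for WT, ΔGS and ΔADAM (SE 0.276 to 0.279), the largest of the 8 enzymes for each construct.

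MVK, which adds the first phosphate to mevalonate, stood at 45, 48.9 and 51.6 CPM with GFP in experiments 1 to 3, against 13.3, 31.3 and 34.4 CPM with WT, 14.6, 33.5 and 36.2 CPM with ΔGS and 16.2, 37.9 and 32.5 CPM with ΔADAM. The GFP level varied little, and no TYRO3 library reached it. The log2 fold changes were -0.93, -0.84 and -0.79 (SE 0.2 to 0.203) in the same order of constructs. PMVK, the next kinase, gave another picture, with 23.1, 26.3 and 34 CPM for GFP, 21.7, 24.7 and 29.6 CPM for WT, 22.9, 24 and 37.7 CPM for ΔGS and 20.2, 22.8 and 27.8 CPM for ΔADAM. Its groups overlapped, the highest library of all being ΔGS of experiment 3, and its log2 differences from GFP were -0.13 for WT, 0 for ΔGS and -0.23 for ΔADAM (SE 0.0936 to 0.0945).

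MVD, the decarboxylase that yields isopentenyl diphosphate, was at 98.4, 119 and 112 CPM with GFP in experiments 1 to 3, and at 17.2, 48.5 and 55.2 CPM with WT, 20.6, 55.7 and 60.2 CPM with ΔGS and 18.5, 70 and 37.5 CPM with ΔADAM. Again the lowest GFP library exceeded the highest TYRO3 library. The log2 fold changes of MVD were -1.58, -1.40 and -1.54 (SE 0.285 to 0.288), so that a strongly reduced decarboxylase followed a kinase whose level was near that of GFP. IDI1, the isomerase, was at 330, 381 and 364 CPM with GFP, at 89.3, 217 and 235 CPM with WT, at 113, 252 and 226 CPM with ΔGS and at 110, 276 and 198 CPM with ΔADAM. No library overlapped between GFP and TYRO3, and the log2 fold changes were -1.12, -0.97 and -1 (SE 0.207 to 0.208).

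FDPS, the farnesyl diphosphate synthase that nitrogen-containing bisphosphonates inhibit, was at 261, 335 and 305 CPM with GFP, at 122, 185 and 209 CPM with WT, at 132, 189 and 235 CPM with ΔGS and at 132, 223 and 183 CPM with ΔADAM. It had the smallest difference of the 6 reduced enzymes, at -0.83, -0.73 and -0.76 log2 (SE 0.123 for each). GGPS1, the last enzyme of the set, was at 48.4, 53.5 and 51.8 CPM with GFP, at 39.4, 46.5 and 48 CPM with WT, at 40.6, 43 and 53.3 CPM with ΔGS and at 40, 48.8 and 51.8 CPM with ΔADAM. The ranges overlapped, although in experiment 1 each TYRO3 library was below GFP, and its log2 differences were -0.20, -0.17 and -0.13 (SE 0.0852 to 0.086).

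A gene was called at a Benjamini-Hochberg adjusted p of at most 0.05 over all 15098 genes in edgeR's quasi-likelihood test and a fold over 1.5. Of the 8 enzymes, 6 were called lower with WT, where 0.689% of all genes were called lower. The count was also 6 of 8 with ΔGS (background 1.88%), with ΔADAM (2.05%) and for the mean of the 3 TYRO3 groups (2.19%). Nothing is read from these counts, since the same contrast chose the genes and all comparisons share the 3 GFP libraries. The 6 genes whose 9 TYRO3 libraries were all below all 3 GFP libraries compare with 5.21% of all genes, and the 6 that were below the GFP library of their own experiment in each of 9 libraries compare with 13.8%. Across all genes the median log2 fold change was 0 for the mean of the TYRO3 groups, whereas over the 8 enzymes it was -0.94.

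Ordered by level per length in the GFP libraries, FDPS was the most abundant at 424 ± 81.4 TPM (SD, n = 3), followed by HMGCS1 at 332 ± 68.8 TPM and IDI1 at 250 ± 37.3 TPM. ACAT2 and MVD were both at 147 TPM, with SDs of 7.16 and 24.7 TPM. The place of ACAT2 rests on noncoding transcripts, since ACAT2-202 and ACAT2-203 held 51.7% and 16.2% of its TPM with GFP and the coding ACAT2-201 was at 25.4 to 64.2 TPM. GGPS1 (52.7 ± 1.3 TPM), MVK (47.7 ± 6.91 TPM) and PMVK (46.5 ± 11.2 TPM) did not differ beyond their spread. With WT TYRO3, HMGCS1 (130 ± 68.8 TPM) and IDI1 (136 ± 59 TPM) did not differ beyond their spread, while MVK, at 27.3 ± 10.6 TPM, lay below PMVK at 45.5 ± 7.05 TPM and GGPS1 at 47.7 ± 6.7 TPM. FDPS remained the most abundant, at 259 ± 65.1 TPM with WT, 270 ± 63 TPM with ΔGS and 277 ± 72.5 TPM with ΔADAM.

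The comparison of constructs bears on whether cleavage of TYRO3 matters for these genes. None of the 8 enzymes passed the threshold between WT and the mean of both variants, nor between ΔGS and ΔADAM, with an adjusted p of 1 for each in edgeR, and 0% of all genes were called in either comparison. At an unadjusted p under 0.05 in edgeR there were 237 of 15098 genes in the former comparison and 216 in the latter, and DESeq2 called 5 and 1. The unadjusted counts are fewer than that threshold alone would let pass if no gene differed. The log2 differences between WT and the variants ran from -0.13 (IDI1, 95% interval -0.52 to 0.26) to 0.01 (HMGCS1, -0.51 to 0.53). For MVD the interval was -0.64 to 0.43, and it was the only one of the 8 to reach beyond a 1.5-fold difference in this comparison. Between ΔGS and ΔADAM the intervals of HMGCS1 (-0.70 to 0.48) and MVD (-0.46 to 0.76) reached beyond 1.5-fold and the other 6 did not. PMVK was the exception at an unadjusted level, being 0.24 log2 higher with ΔGS than with ΔADAM (interval 0.04 to 0.43, unadjusted p = 0.0239 and adjusted p = 1 in edgeR). These intervals leave room for moderate differences and do not show that the constructs act alike.

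**Figure D2:**
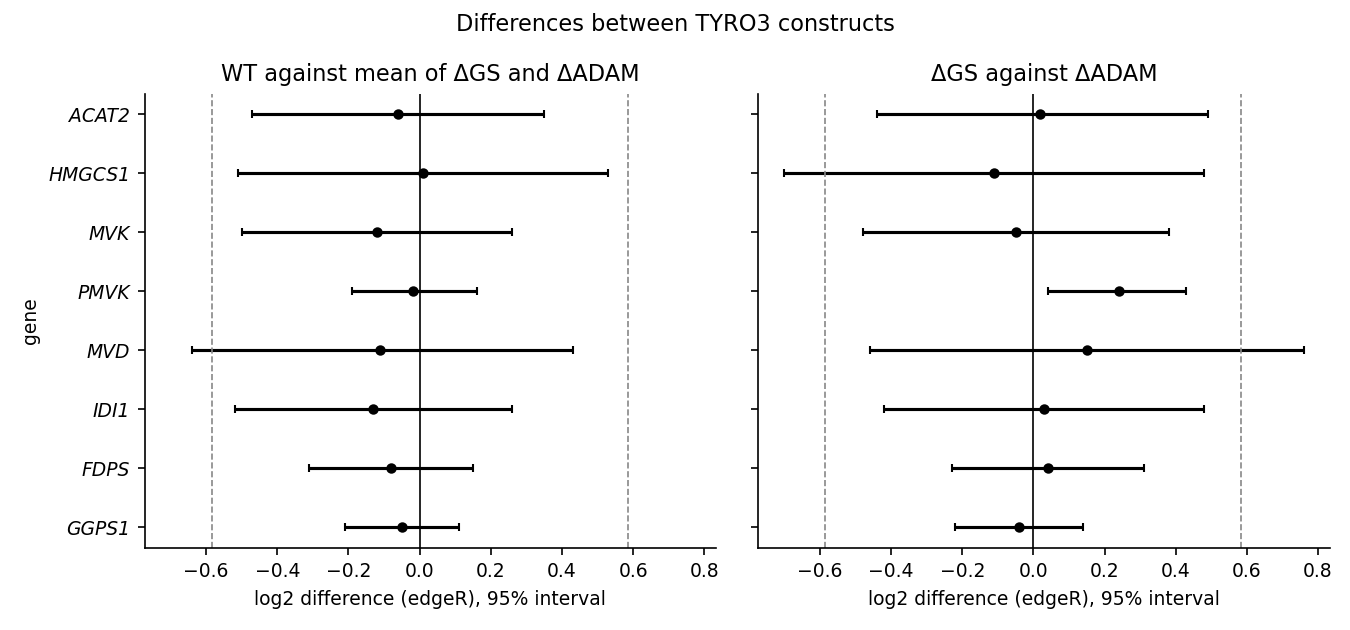
Log2 difference between TYRO3 constructs for the 8 enzymes, with points for the estimates and bars for 95% intervals from edgeR, and dashed lines at a 1.5-fold difference. All intervals but that of PMVK for ΔGS against ΔADAM (0.04 to 0.43) include 0.

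For the 6 reduced enzymes the mean ratios to GFP were further from 0 in experiment 1 than in the other experiments. The 3 ratios of an experiment share its GFP library, so an SD over the constructs leaves out the error of that library. In experiment 1, HMGCS1 had a mean log2 ratio to GFP of -2.41 ± 0.18 (SD over the 3 constructs), against -1.19 ± 0.24 in experiment 2 and -1.24 ± 0.33 in experiment 3. MVD gave -2.39 ± 0.13, -1.05 ± 0.27 and -1.17 ± 0.36, and MVK gave -1.62 ± 0.14, -0.52 ± 0.14 and -0.59 ± 0.08. The GFP libraries of experiment 1 did not stand above those of the other experiments for any of these genes, so that the larger ratio came with lower TYRO3 libraries. FDPS varied least among the 6, with -1.02 ± 0.06, -0.76 ± 0.14 and -0.55 ± 0.18, and PMVK was close to the GFP level in all 3 (-0.10 ± 0.09, -0.14 ± 0.06 and -0.11 ± 0.23). Experiment 1 also had the highest TYRO3 levels, at 1690 to 1960 TPM against 640 to 988 TPM, and the shallow GFP library. Their part in the larger ratios was not tested.

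**Figure D3:**
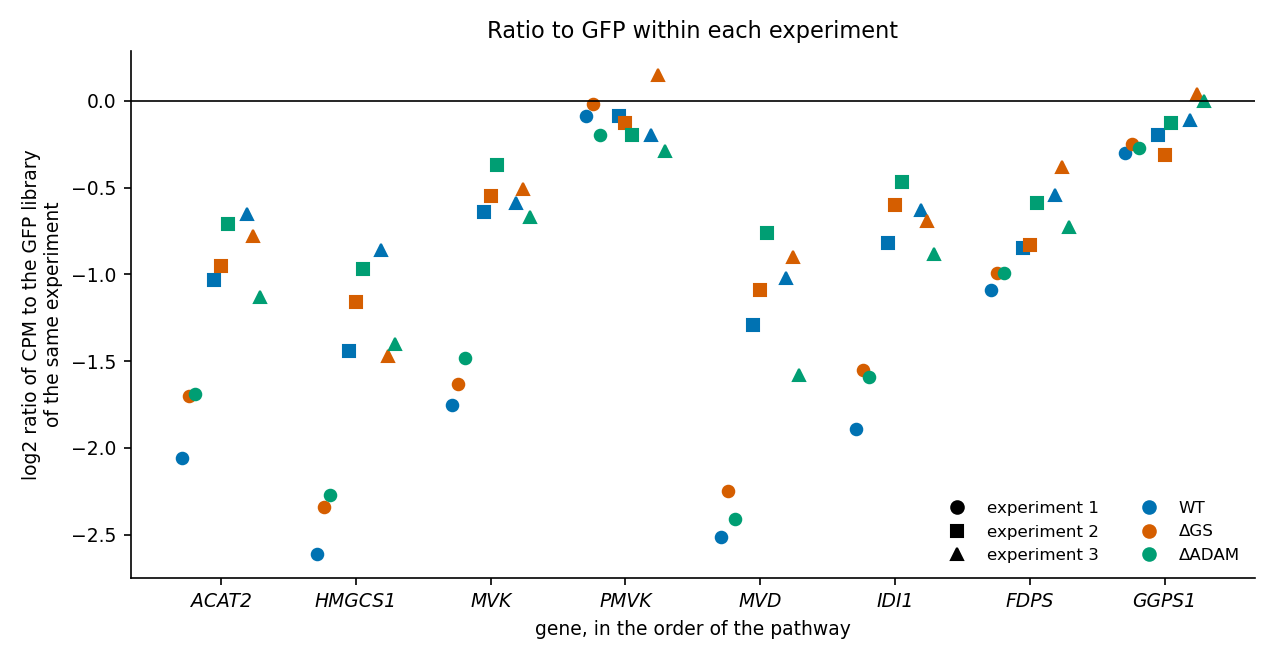
Log2 ratio of each TYRO3 library to the GFP library of its own experiment, for the 8 enzymes in the order of the pathway, with color for the construct and shape for the experiment. The circles of experiment 1 lie lowest for ACAT2, HMGCS1, MVK, MVD, IDI1 and FDPS, and all points of PMVK lie between -0.29 and 0.15.

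Whether the TYRO3 difference itself changed between experiment 1 and the other experiments was tested with an interaction term. All constructs of experiment 1 share its only GFP library, the shallowest of all. The intervals and p-values of this term therefore measure the spread between libraries and not between experiments. No enzyme passed the adjusted threshold in edgeR, and 0.0265% of all genes were called lower. MVK came closest, with a further -1.06 log2 in experiment 1 (95% interval -1.44 to -0.68, adjusted p = 0.0942), followed by IDI1 with -1 (-1.42 to -0.58, adjusted p = 0.135) and MVD with -1.30 (-1.99 to -0.61, adjusted p = 0.216). At an unadjusted p under 0.05 in edgeR, there were 5 enzymes (ACAT2, HMGCS1, MVK, MVD and IDI1), all with the larger reduction in experiment 1, and 10.8% of all genes in either direction. With DESeq2 in place of edgeR, ACAT2, MVK, MVD and IDI1 passed the adjusted threshold, with log2 values of -0.96 to -1.32, where 0.47% of all genes were called lower. Without the filter on low counts MVK and IDI1 did, against 0.158% of all genes. For PMVK the term was 0.02 (-0.39 to 0.44) and for GGPS1 it was -0.15 (-0.50 to 0.19).

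Without experiment 1 the mean log2 fold changes of the TYRO3 groups were -0.85 ± 0.133 (SE) for ACAT2, -1.19 ± 0.162 for HMGCS1, -0.54 ± 0.0997 for MVK, -1.07 ± 0.174 for MVD, -0.66 ± 0.111 for IDI1 and -0.63 ± 0.117 for FDPS. All 6 kept their direction, and MVK fell below a fold of 1.5. The corresponding values over all 3 experiments were -1.18, -1.64, -0.85, -1.51, -1.03 and -0.77. For the mean of the TYRO3 groups 5 enzymes were called lower without experiment 1, against 0.675% of all genes. With single constructs the calls were 1 with ΔGS (HMGCS1, background 0.281%), 2 with ΔADAM (ACAT2 and HMGCS1, background 0.321%) and 0 with WT, where 0% of all genes were called lower, so that the count with WT says nothing particular to the enzymes. The 6 log2 fold changes with WT were then -1.13 to -0.6 (edgeR, adjusted p 0.114 to 0.148).

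Leaving out some single libraries, but not others, lowered the number of calls among all genes as well as among the enzymes. Calls lower with WT rose to 257 of 15437 genes without the WT library of experiment 3, from 104 of 15098. The 6 enzymes stayed called there. Without the WT library of experiment 1, 0 enzymes and 0.013% of all genes were called lower with WT, and without that of experiment 2, 0 enzymes and 0.00649%. The log2 fold changes of the 6 enzymes were -1.42 to -0.78 in the former fit and -1.53 to -0.8 in the latter (edgeR, adjusted p 0.0582 to 0.177 and 0.057 to 0.125). Without the ΔGS library of experiment 1 or 2, HMGCS1 and FDPS were called with ΔGS (background 0.902% and 0.724%). Without the ΔADAM library of experiment 1 or 3, FDPS was called with ΔADAM (background 0.36% and 0.222%).

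**Figure D4:**
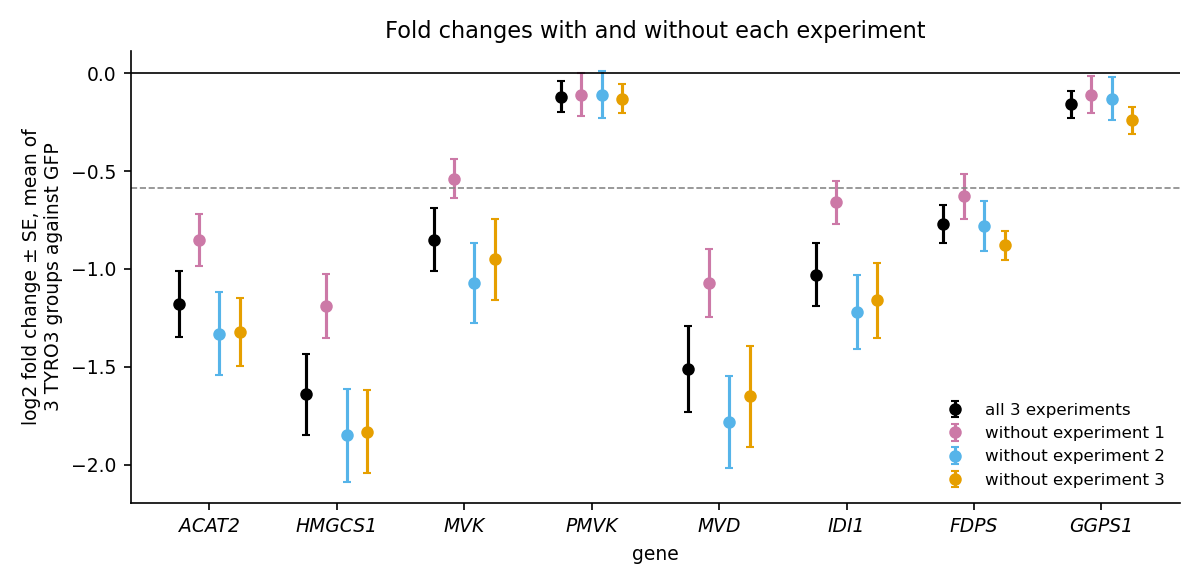
Log2 fold change (± SE) of each enzyme for the mean of the 3 TYRO3 groups against GFP, with all experiments and with each experiment left out, and a dashed line at a 1.5-fold reduction. The estimates without experiment 1 are the nearest to 0 for ACAT2, HMGCS1, MVK, MVD, IDI1 and FDPS, and only that of MVK (-0.54) lies above the line among these 6.

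The 6 reduced enzymes also varied together from library to library. After centring log2 CPM within experiments, the Pearson correlation of a member with the mean of the other 7 over the 12 libraries was 0.995 for ACAT2, 0.993 for MVD, 0.991 for IDI1, 0.979 for MVK, 0.974 for FDPS and 0.970 for HMGCS1. It was 0.794 for GGPS1 and 0.411 for PMVK. These libraries share their experiments, and the variation includes the gap between GFP and TYRO3, so the values are a description. Among 9944 genes with at least 10 CPM on average, the 10 whose centred pattern was most like the mean of the 8 enzymes had r from 0.990 to 0.995. They included NSDHL, DHCR7 and HSD17B7, which act later in cholesterol synthesis. Among the others were FCRLA, PGM1, CTNNAL1, MC1R, CYB5B and ARHGDIB. Without experiment 1, 4 of the 10 were again among the 10 most like the enzymes and all 10 were among the first 100.

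The genes around the pathway were described by lists. Over all genes, 0.689% were called lower with WT, 1.88% with ΔGS, 2.05% with ΔADAM and 2.19% for the mean. Before the pathway, 3 of 6 tested genes of acetyl-CoA supply and the related thiolase and synthase steps were called lower with each construct and for their mean, with mean log2 fold changes of -0.73 for ACLY, -1.16 for ACSS2 and -0.72 for SLC25A1, which make cytosolic acetyl-CoA or export the citrate for it. The mitochondrial thiolase ACAT1 was at -0.12. After FDPS, all 12 enzymes from squalene to cholesterol were called lower with ΔGS, with ΔADAM and for the mean, and 10 of 12 with WT. Their median of -0.92 log2 was close to the -0.94 of the 8 enzymes, and examples are LSS at -1.33, HSD17B7 at -1.22 and SC5D at -0.66.

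On the branches that use farnesyl and geranylgeranyl diphosphate for dolichol, ubiquinone and protein prenylation, 0 of 16 genes were called in any comparison with GFP, with mean log2 fold changes from -0.30 to 0.24 and a median of -0.06. With 0.689% to 2.19% of all genes called lower, the count of 0 says nothing particular to these 16 genes. Of the members that make these diphosphates, FDPS was at -0.77 and GGPS1 at -0.16. Among 13 tested genes of SREBP control and sterol transport, ABCA1, which exports cholesterol, was called higher with each construct, at 1.39 log2 for the mean, where 526 of 15098 genes were called higher. ABCA1 was near the floor, at a mean of 0.235 TPM with GFP and 0.788, 0.798 and 0.636 TPM with WT, ΔGS and ΔADAM. Its libraries overlapped, with up to 0.293 TPM with GFP and down to 0.231 TPM with ΔADAM. For the mean and for each variant, 4 of the 13 were called lower (background 1.88% to 2.19%), and 0 with WT (background 0.689%). INSIG1, which retains SREBP in the endoplasmic reticulum, was at -1.19 and STARD4, a sterol carrier, at -0.83 for the mean. INSIG1, with -1.21 and an adjusted p of 0.0513, and STARD4, with -0.83 and an adjusted p of 0.0501, just missed the edgeR threshold with WT, and 0 genes were called between WT and the variants, as given above.

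**Figure D5:**
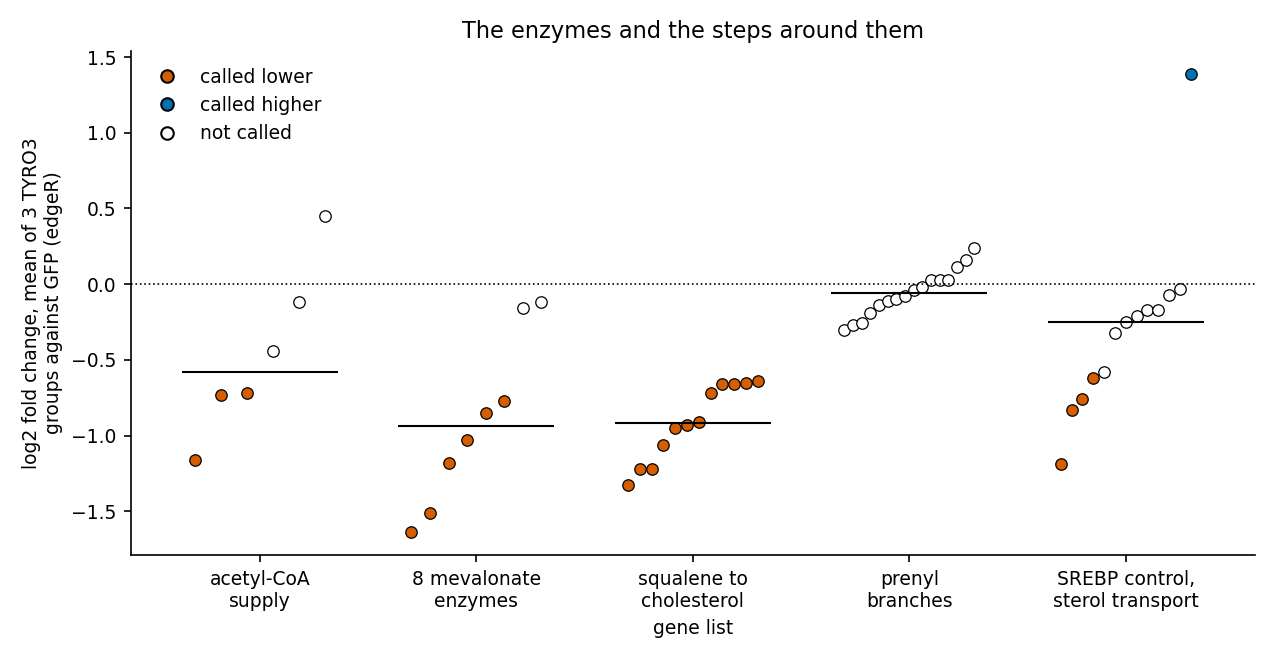
Log2 fold change of the mean of the 3 TYRO3 groups against GFP (edgeR) for the tested genes of each list, with 1 point per gene, filled when called, and a bar at the median. The 8 enzymes and the 12 squalene to cholesterol genes lie mostly between -0.6 and -1.7, while the 16 genes of the prenyl branches lie around 0.

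Markers called lower for the mean of the TYRO3 groups were MITF at -0.96 log2, DCT at -1.17 and LUM at -0.65, where 2.19% of all genes were called lower. MITF and DCT were 2 of 8 melanocyte markers (0 with WT), and the 8 ran from -1.17 to 0.65 log2 with a median of -0.44. TYRP1 went the other way without being called. Its mean was 0.757 TPM with GFP and 2.59, 2.35 and 2.2 TPM with WT, ΔGS and ΔADAM. The share of mitochondrial transcripts was 14.3% to 16.9% in experiment 1, 13.0% to 13.9% in experiment 2 and 8.46% to 9.88% in experiment 3. Their part in the differences was not tested.

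At the level of transcripts, 15 annotated transcripts each held at least 10% of the counts of their gene. The genes lie, in GRCh38 with GENCODE 29, at chr6:159760328-159779055 on the plus strand (ACAT2), chr5:43289395-43313512 on the minus strand (HMGCS1), chr12:109573255-109598117 on the plus strand (MVK) and chr1:154924734-154936991 on the minus strand (PMVK). MVD lies at chr16:88651935-88663161 and IDI1 at chr10:1039152-1049170, both on the minus strand, and FDPS at chr1:155308748-155320666 and GGPS1 at chr1:235327350-235344532, both on the plus strand. A single transcript carried nearly all counts of PMVK (PMVK-201, 100%), IDI1 (IDI1-201, 96.6%) and HMGCS1 (HMGCS1-202, 92.8%). Those 3 had log2 fold changes of -0.06 ± 0.0999 (SE), -0.97 ± 0.158 and -1.57 ± 0.209 for the mean of the TYRO3 groups, which are values of the same contrast. MVD-201 (74.5% of MVD counts) was at -1.42 ± 0.196. Per transcript edgeR called none of the 15 lower, 0% of the 69182 transcripts tested being called lower, although 9 of the 15 were lower at an unadjusted p under 0.05, which 9.08% of all transcripts passed in either direction. DESeq2 called 8 of the 15 lower, and 0.984% of all transcripts.

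FDPS was split between FDPS-203 (38.7% of counts, log2 -0.47 ± 0.12) and FDPS-206 (35% of counts, -1.03 ± 0.186). As a share of the TPM of FDPS, FDPS-206 was at 48.3%, 34.4% and 39.3% with GFP in experiments 1 to 3 and at 26.1% to 37% in the 9 TYRO3 libraries. The mean difference within experiments was -8.01 percentage points. An exact two-sided permutation test of the GFP label within experiments gave p = 0.0156, the smallest that the 64 arrangements allow, and an adjusted p of 0.172 over the 11 transcripts tested so. The other 10 shares, of ACAT2, MVK, FDPS and GGPS1 transcripts, gave unadjusted p-values of 0.109 to 0.922 in the same exact test.

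Some counts can be shared with other genes, since the sources do not say whether the counting used strand. ACAT2 overlaps TCP1 on the opposite strand, which held 125873 counts over the 12 libraries against 26787 for ACAT2, and noncoding transcripts held part of the ACAT2 counts (20.4% for ACAT2-202 and 11.5% for ACAT2-203). TCP1 itself was at -0.22 ± 0.06 log2 for the mean of the TYRO3 groups. The coding transcript ACAT2-201 was at -0.88 ± 0.138, nearer to 0 than the -1.18 of the whole gene. MVK overlaps MMAB (-0.56 ± 0.15 log2) on the opposite strand, and GGPS1 overlaps ARID4B (-0.03 ± 0.11 log2) on the opposite strand. The 8 annotated FDPS pseudogenes held 34 counts in all, against 57655 for FDPS.

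The sequence before a RefSeq start of each gene was examined because 6 of the enzymes moved together. RefSeq promoters (GRCh38.p14) were given for 7 of the 8 enzymes, and for each the start nearest to its main transcript was used, with the 250 bases before it. ACAT2 was not matched. Searched on both strands were CCAAT, the box that NF-Y binds (ATTGG on the other strand), CACNCCAC, a core of sterol regulatory elements, and GGGCGG, which SP1 binds. Matches to different motifs may share bases. CCAAT was found in 6 of the 7 windows and in 32% of the windows of 35116 promoters, and 5 of the 7 held at least 2 copies, as did 9.53% of all. Those 5 were MVK with 5 copies, MVD and FDPS with 3 each, and HMGCS1 and IDI1 with 2 each, while GGPS1 held 1 and PMVK 0. CACNCCAC was found in 0 of the 7 and in 4.87% of all windows, and GGGCGG in all 7 and in 42.6% of all. The windows of 4 reduced enzymes and of PMVK are shown 5′ to 3′ on the strand of the gene, ending at the base before the start, with each CCAAT or ATTGG in capitals. They lie at chr5:43313413-43313662 (HMGCS1, minus strand), chr12:109573544-109573793 (MVK, plus strand), chr16:88663092-88663341 (MVD, minus strand), chr1:155308616-155308865 (FDPS, plus strand) and chr1:154936720-154936969 (PMVK, minus strand).
HMGCS1: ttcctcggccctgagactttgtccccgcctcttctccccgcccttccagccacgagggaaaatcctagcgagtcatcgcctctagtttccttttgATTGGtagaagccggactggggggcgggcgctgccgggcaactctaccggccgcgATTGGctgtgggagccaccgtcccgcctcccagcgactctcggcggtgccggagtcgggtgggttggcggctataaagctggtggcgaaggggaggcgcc
MVK: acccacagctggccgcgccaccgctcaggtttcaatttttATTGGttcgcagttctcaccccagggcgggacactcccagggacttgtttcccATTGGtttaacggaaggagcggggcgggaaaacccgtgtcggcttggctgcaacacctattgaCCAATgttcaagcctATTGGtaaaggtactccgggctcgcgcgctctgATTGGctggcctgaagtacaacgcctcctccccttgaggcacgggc
MVD: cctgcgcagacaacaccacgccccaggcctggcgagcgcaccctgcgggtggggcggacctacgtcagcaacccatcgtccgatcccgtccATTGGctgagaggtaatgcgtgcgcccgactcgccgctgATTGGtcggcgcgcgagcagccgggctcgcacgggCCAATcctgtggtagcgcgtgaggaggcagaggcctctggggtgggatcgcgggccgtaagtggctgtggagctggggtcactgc
FDPS: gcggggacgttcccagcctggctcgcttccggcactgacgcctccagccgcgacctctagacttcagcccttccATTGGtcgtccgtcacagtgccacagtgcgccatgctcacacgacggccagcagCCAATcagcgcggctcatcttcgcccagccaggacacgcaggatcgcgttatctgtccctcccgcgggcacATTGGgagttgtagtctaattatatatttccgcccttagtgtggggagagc
PMVK: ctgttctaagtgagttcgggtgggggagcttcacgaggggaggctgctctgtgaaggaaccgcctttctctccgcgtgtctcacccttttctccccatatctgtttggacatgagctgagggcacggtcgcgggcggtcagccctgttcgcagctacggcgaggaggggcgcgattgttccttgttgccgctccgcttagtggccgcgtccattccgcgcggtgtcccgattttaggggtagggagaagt
The copies lay 46 to 210 bases before the start in MVK, 85 to 159 in MVD, 51 to 176 in FDPS, 117 to 215 in IDI1 and 100 to 155 in HMGCS1, counted from the first base of each match as printed, and the copy of GGPS1 lay 240 bases before. A match is a description of letters in this window and not evidence of binding, and the starts are those of RefSeq, 0 to 272 bases from the start of the main transcript. The distance of 272 is that of PMVK, whose window lies wholly inside PMVK-201. Its 0 copies therefore come from transcribed sequence and cannot be compared with the other windows. The last 100 bases of the window of HMGCS1, 72 of FDPS, 51 of IDI1 and 19 of MVD also lie inside the main transcript. These stretches hold the HMGCS1 copy at 100 bases and the FDPS copy at 51 bases before the start. The counts of windows given above include these copies and the window of PMVK.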

How the data were processed

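RNA of 12 libraries (4 groups, 3 experiments) was read as TruSeq stranded mRNA pairs. The authors trimmed reads with PRINSEQ and Trimmomatic 0.33, checked them with FastQC 0.11.9 and used kallisto 0.46.0 on Ensembl 96 (GRCh38) to make the deposited estimated counts and TPM values per transcript (versions from the submitters' processing notes and the study's methods). The batch correction the authors describe comes after these files. Of 188753 transcripts, 169797 matched GENCODE 29 by identifier without version (97.4% to 97.5% of counts), and the 18956 others were not used. Estimated counts were summed per gene, rounded and fitted with edgeR 4.0.16 (R 4.3.3) with TMM, filterByExpr (minimum count 10, total 15), the 4 groups and the experiment as a replicate block. A call needed an adjusted p of at most 0.05 and a fold over 1.5. CPM are counts scaled by TMM library sizes. The interaction added a TYRO3 by experiment 1 term. No source says whether the 3 experiments were separate cultures, so p-values measure the spread between these libraries, and intervals from counts cover counting error only.

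The experiment numbers come from the sample titles. Deviations from group means correlated at 0.18 to 0.71 for the 18 pairs of libraries from the same experiment and different groups and at -0.54 to 0.03 for the 36 other pairs, so the libraries were treated as paired.

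The enzymes, the gene lists and the tests were chosen with earlier results of these data known. Named were all 8 enzymes, TYRO3, up to 4 called genes of each list by the smallest p for the mean of the TYRO3 groups, the 10 genes most like the enzymes, and transcripts with at least 10% of the counts of their gene. Some genes that this rule names are not reported here. MSMO1, LUM, ACAT1, overlapping genes and marker genes are named outside that rule, after their values were seen. The lists held 8 genes of acetyl-CoA supply and related steps, 12 from squalene to cholesterol, 16 of the prenyl branches, 15 of SREBP control and sterol transport, 8 melanocyte markers and 10 markers of other cells.

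Tried in place of the main settings were DESeq2 1.42.0, its size factors within edgeR, limma 3.58.1 (log2 TPM after adding 1 or 0.1), other filters, a transcript length offset, other terms for the experiment, only the groups compared, no fold threshold and leaving out each experiment or library. The procedure was also run on simulated counts, with changes set in WT alone and alike in every experiment. That setting differs from these data, so the run is not used as support for the calls. Tables and figures used Python, pandas and matplotlib.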

Additional observations from a re-analysis of the deposited data

Results flagged for a closer look

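MSMO1, the methylsterol oxidase of the squalene to cholesterol list, was the only gene of the lists whose TYRO3 difference passed the test of a change between experiments. Its difference from GFP was larger in experiment 1 than in experiments 2 and 3 by -1.27 log2 (edgeR, adjusted p = 0.0429). As for the enzymes, this p-value measures the spread between libraries and not between experiments. MSMO1 was at 27.6% to 30.2% of the GFP library in experiment 1, at 60.9% to 76.9% in experiment 2 and at 65.2% to 74.9% in experiment 3, and each of the 9 TYRO3 libraries was below its GFP library. The adjusted p was 5.11e-08 with DESeq2, 0.00349 without the filter and 0.0507 with at least 10 counts in every library. It ranged from 0.0206 to 0.203 over the 11 fits that left out a library. The shallow GFP library of experiment 1 cannot be left out of this comparison, because it is the only control of that experiment. Groups of 3 libraries are too small for a check of single outlying libraries.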

How the results depend on the processing

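All 6 reduced enzymes kept a negative log2 fold change against GFP under every alternative and left-out library, and no called value changed sign. Differences between constructs, none of them called, did change sign with the experiment left out, as for HMGCS1 between WT and the variants (-0.34 to 0.21) and MVD between ΔGS and ΔADAM (-0.12 to 0.45), and PMVK with ΔGS against GFP ran from -0.08 to 0.08. Genes called numbered 355 with WT, 708 with ΔGS, 784 with ΔADAM and 857 for the mean. With no replicate block but a term for experiment 1 against the others, the grouping of experiments in the study, they were 6, 69, 168 and 500, with 0, 3, 4 and 6 enzymes called; with no replicate block and no batch term they were 3, 4, 5 and 19, with 0 enzymes called. Without experiment 1 they were 47, 189, 218 and 324, without experiment 2 21, 99 and 349 for the 3 constructs, and without experiment 3 461 with ΔGS and 398 with ΔADAM. Only the groups compared gave 30 with WT (0 enzymes) and 469 with ΔGS (5 enzymes). No fold threshold gave 541, 1352, 1537 and 2390. On log2 TPM limma gave 233, 418 and 499 for the constructs with a pseudocount of 1 and 228, 423 and 518 with 0.1, and 6 enzymes throughout, with 378 higher and 121 lower for ΔADAM against 475 and 309 in edgeR, and for the mean 633 and 224 with a pseudocount of 0.1 against 526 and 331. For WT, DESeq2 gave 610 and no filter 577. Between constructs, where edgeR gave 0, DESeq2 gave 5 (WT against the variants) and 1 (ΔGS against ΔADAM), and no filter 2 for the former. Leaving out a library gave 79 to 606 with WT, 269 to 777 with ΔGS, 198 to 870 with ΔADAM, 384 to 974 for the mean and 0 to 1 for ΔGS against ΔADAM. The lowest counts for ΔGS and the mean came without the GFP library of experiment 1, where MVK was no longer called for the mean. The interaction gave 7 genes, 107 with DESeq2, 60 without the filter, 3 with at least 10 counts in every library and 0 to 14 without a library. Of the members' transcripts DESeq2 called 8 where edgeR called 0. The cause of these changes was not tested beyond what the construction of each alternative sets. PMVK, which was not called, moved from -0.12 to -0.02 on TPM for the mean. Depth limits the smallest values most, since PMVK had 88 counts in the GFP library of experiment 1.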
